A study of Mus musculus with 8 samples.

Results

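The genes of MHC class II antigen presentation were examined in epididymal white adipose tissue, a visceral fat depot of male mice that lies along the epididymis, of Sucnr1-/- and WT mice. The set held 9 listed genes: H2-Aa, H2-Ab1, H2-Eb1, H2-DMa, H2-DMb1, H2-Oa, H2-Ob, Cd74 and Ciita. Of these, 8 had a probe set with exactly 1 gene symbol, out of 18820 genes measured in that way. The only probe set for H2-DMb1 also carried the name of its close copy H2-DMb2, so its signal could not be given to either gene and H2-DMb1 has no value here.

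Both groups were males on a C57BL/6 background that received a low-fat diet (LFD) for 16 weeks, starting at 8 to 10 weeks of age, and were killed at 24 to 26 weeks. These ages are those of the sample labels, and the methods of the study give a wider range of starting ages. The 4 Sucnr1-/- mice lacked the succinate receptor in every cell, because an IRES/lacZ/neo cassette had been put in place of much of the exon that encodes it. The 4 WT mice came from the same crosses between heterozygous parents. RNA of each mouse was hybridised to 1 Affymetrix whole-transcript array, and the deposited values are log2 expression after robust multi-array average (RMA).

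MHC class II molecules carry peptides from engulfed or endosomal proteins to the cell surface, where CD4+ T cells read them. Each molecule is a pair of an alpha and a beta chain, which assembles on the invariant chain encoded by Cd74 and keeps a remnant of it in the peptide groove until H2-M, the product of H2-DMa and the H2-DMb genes, exchanges it for another peptide. H2-O, encoded by H2-Oa and H2-Ob, binds H2-M and inhibits it, mainly in B cells. Transcription of the whole group depends on Ciita, the class II transactivator, which docks on factors bound to the paired X and Y boxes of class II promoters. In adipose tissue class II is known chiefly from macrophages, dendritic cells and B cells.

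The shared promoter element is shown here because it ties these genes together by sequence. RefSeq promoter windows of 300 bases (250 before and 50 after the gene start, GRCm38.p6) were found for 6 of the 9 genes, and H2-Ab1, Cd74 and Ciita had no entry. The core of the X1 box was searched as GNAAC and the Y box as GATTGG, both on either strand, with motif starts 20 to 40 bases apart. Both spellings were chosen after the sequences had been read. Capitals mark first the X1 core and then the Y box, each sequence is read 5′ to 3′ along the gene's own strand, and 8 flanking bases stand on each side.
H2-Aa: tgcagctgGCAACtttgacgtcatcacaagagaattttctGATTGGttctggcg
H2-Eb1: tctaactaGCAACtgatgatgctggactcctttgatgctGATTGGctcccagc
H2-DMb1: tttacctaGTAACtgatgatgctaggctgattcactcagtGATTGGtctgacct
H2-Oa: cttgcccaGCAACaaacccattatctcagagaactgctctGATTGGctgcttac
H2-Ob: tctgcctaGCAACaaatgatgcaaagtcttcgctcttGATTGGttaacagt
These stretches lie at chr17:34287859-34287912 on the minus strand for H2-Aa, and on the plus strand at chr17:34305768-34305820 for H2-Eb1, chr17:34153089-34153142 for H2-DMb1, chr17:34092295-34092348 for H2-Oa and chr17:34238810-34238860 for H2-Ob. The motif starts were 29 to 32 bases apart, and the Y box began at positions −62 to −44 relative to the gene start. The pair was present in 395 of 32817 promoter windows of the same length (1.2%), and the Y box, with or without it, in 16.1%. H2-DMa has 2 windows, neither with the pair and 1 with the Y box. A match is a description of letters, not evidence of binding.

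Sucnr1 itself was checked first. It measured 6.02, 6.05, 5.41 and 7.11 log2 units in Sucnr1-/- mice, against 8.68, 8.97, 9.38 and 9.78 in WT mice. The groups did not overlap, so every array bore out its label. The difference was −3.05 (SE 0.36; limma, adjusted p = 0.321 over all genes). Array medians lay between 6.28 and 6.36, and any pair of arrays correlated at 0.981 to 0.993 over 35556 probe sets. No gene of the 18820, not even Sucnr1, passed an adjusted p of 0.05 in limma (0%). Not passing thus does not show a lack of difference. At an unadjusted p under 0.05, 632 genes were lower in Sucnr1-/- mice (3.36%) and 652 were higher (3.46%). The split depended on scaling, with 330 lower and 1352 higher after each array was centred on its median and 465 lower and 838 higher after quantile normalization.

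None of the 8 class II genes differed between genotypes at an adjusted p under 0.05 in limma. The 3 classical chains, the invariant chain and Ciita were close to level, with log2 differences (Sucnr1-/- minus WT) between −0.09 and −0.02. The 3 genes of peptide editing stood further below the WT mean, with H2-DMa at −0.38, H2-Oa at −0.26 and H2-Ob at −0.59. In whole tissue, fewer cells of a type and less RNA per cell cannot be told apart.

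H2-Aa encodes the alpha chain of I-A, the class II molecule that C57BL/6 mice display. H2-Aa measured 12.50, 12.46, 12.41 and 12.34 log2 units in Sucnr1-/- mice, against 12.63, 12.27, 12.70 and 12.47 in WT mice. All Sucnr1-/- values fell inside the WT range, and the WT mice spread 0.43 units against 0.16 in Sucnr1-/- mice. The log2 difference was −0.09 with a 95% interval of −0.31 to 0.13 (limma, adjusted p = 0.825).

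H2-Ab1, the beta chain that pairs with it, measured 12.26, 12.19, 12.02 and 12.01 in Sucnr1-/- mice, against 12.32, 11.98, 12.33 and 11.91 in WT mice. WT mice held both the highest and the lowest values of H2-Ab1, and the Sucnr1-/- mice lay between them. The log2 difference of −0.02 (95% interval −0.28 to 0.25) was smaller than the spread within either genotype (limma, adjusted p = 0.978). It was 0.025 once the arrays were centred on their medians.

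H2-Eb1 encodes the beta chain of I-E, which C57BL/6 mice do not display because their H2-Ea gene is not functional. H2-Eb1 measured 12.11, 12.11, 11.94 and 11.97 in Sucnr1-/- mice, against 12.33, 11.86, 12.27 and 11.96 in WT mice. The Sucnr1-/- values again lay inside the WT range. The log2 difference was −0.07 (95% interval −0.33 to 0.19; limma, adjusted p = 0.871). H2-Ea stayed near the low end of the array scale on all arrays, between 3.92 and 4.13 in Sucnr1-/- mice and between 3.91 and 4.08 in WT mice. H2-Eb2, a further beta chain gene, ran from 4.84 to 5.33 in Sucnr1-/- mice and from 4.58 to 5.36 in 3 WT mice, with WT replicate 1 apart at 6.77. Its difference of −0.37 (SE 0.41) became 0.07 without that mouse.

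Cd74 measured 12.40, 12.41, 12.22 and 12.30 in Sucnr1-/- mice, against 12.59, 12.20, 12.63 and 12.23 in WT mice. It followed the classical chains closely, with 2 WT mice above and 1 WT mouse below all 4 Sucnr1-/- mice. The log2 difference was −0.08 (95% interval −0.34 to 0.18; limma, adjusted p = 0.863). Relative to Cd74, the mean of H2-Aa and H2-Ab1 lay between −0.04 and 0.08 in Sucnr1-/- mice and between −0.03 and 0.05 in WT mice, both set to the WT mean. The proportion of I-A transcripts to invariant chain transcripts thus stayed within 0.08 log2 units of the WT mean in every mouse.

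Ciita measured 6.90, 7.07, 6.78 and 6.85 in Sucnr1-/- mice, against 7.15, 6.66, 7.12 and 6.82 in WT mice. WT replicates 1 and 3 were the highest mice, and WT replicate 2 was the lowest, as it also was for H2-Aa, H2-Eb1 and Cd74. The log2 difference of −0.04 (95% interval −0.31 to 0.24; limma, adjusted p = 0.946) changed sign to 0.0050 with the arrays centred on their medians and to 0.0063 with quantile normalization.

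H2-DMa, the alpha chain of the peptide exchange factor H2-M, measured 9.98, 9.88, 9.67 and 9.85 in Sucnr1-/- mice, against 10.33, 9.96, 10.50 and 10.14 in WT mice. The groups overlapped by a single mouse, since Sucnr1-/- replicate 1 lay just above WT replicate 2. The log2 difference was −0.38 (SE 0.12; 95% interval −0.66 to −0.11), which is a level of 0.766 times WT. H2-DMa was the class II gene that was lower before adjustment in this fit (limma, unadjusted p = 0.0120, adjusted p = 0.712). That is 12.5% of the class II genes, against the 3.36% of all genes given above. The exact two-sided permutation test over the 8 mice gave p = 0.0571, where 0.0286 is the smallest that 4 against 4 allows. Leaving out any 1 mouse kept the difference between −0.48 and −0.30.

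H2-Ob, the beta chain of H2-O, measured 7.46, 6.53, 6.61 and 7.07 in Sucnr1-/- mice, against 8.12, 6.98, 7.74 and 7.18 in WT mice. The largest difference of the 8 genes was seen here, at −0.59 (SE 0.29; 95% interval −1.24 to 0.07), or 0.666 times WT, but mice of 1 genotype differed by up to 1.14 units. It did not pass in limma (unadjusted p = 0.0722, adjusted p = 0.719) or in the exact permutation test (p = 0.143). It did pass an unadjusted p of 0.05 with array weights, without Sucnr1-/- replicate 1 and without WT replicate 2. With 1 mouse left out the difference ran from −0.77 to −0.38, the upper end without WT replicate 1.

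H2-Oa, the alpha chain of H2-O, measured 6.19, 5.81, 5.61 and 5.92 in Sucnr1-/- mice, against 6.59, 5.80, 6.26 and 5.94 in WT mice. Its signal was low, among the 40% dimmest genes. The groups overlapped widely, and the log2 difference was −0.26 (SE 0.18; 95% interval −0.68 to 0.16; limma, adjusted p = 0.753). The difference ran from −0.38 to −0.12 when 1 mouse was left out, the upper end without WT replicate 1. The order of the mice was nearly that of H2-Ob, with WT replicate 1 highest and Sucnr1-/- replicate 1 above the rest of its genotype for both chains.

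**Figure D1:**
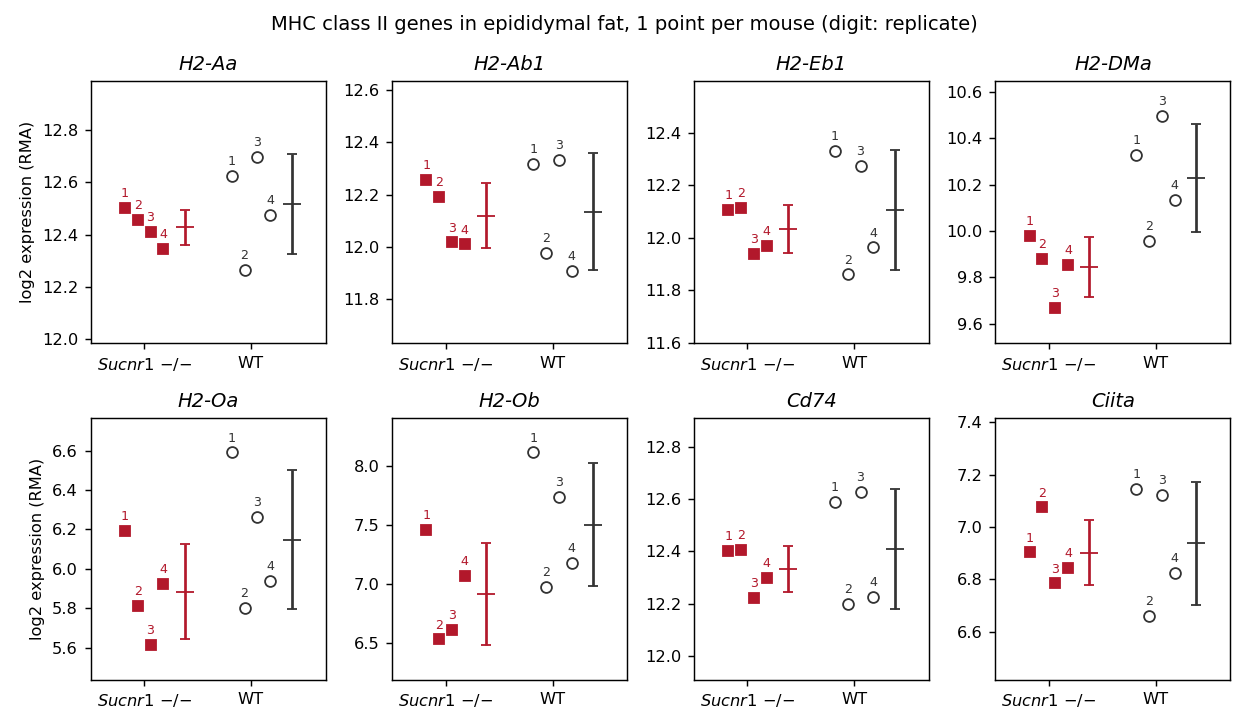
Log2 expression (RMA) of the 8 measured class II genes, with 1 point per mouse and a digit for its replicate number, Sucnr1-/- mice as filled squares on the left and WT mice as open circles on the right. Bars give the mean ± SD (n = 4 each), and no gene separates the genotypes completely. H2-DMa comes closest, with 9.67 to 9.98 in Sucnr1-/- mice and 9.96 to 10.50 in WT mice.

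All 8 genes had a lower mean in Sucnr1-/- mice, where 46.8% of all genes did, and their median difference was −0.08 against 0.01 over all genes. This count rested on WT replicate 1 in part, since 5 of 8 means were lower without that mouse. The median was −0.03 without WT replicate 1 and −0.02 without WT replicate 3, but −0.16 without WT replicate 2 and −0.13 without WT replicate 4. None of the 8 had every Sucnr1-/- mouse below every WT mouse, an arrangement found for 1.87% of all genes.

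The class II genes varied together among the WT mice. WT replicates 1 and 3 were the 2 highest of the 8 mice for 8 of 8 genes, an order that 4.68% of all genes showed. These 2 mice were picked after the values had been seen, and the 8 genes vary together, so this is a description with no test. WT replicate 2 was the lowest WT mouse for 7 of 8 genes, H2-Ab1 being the exception with WT replicate 4. For all 8 genes the WT range exceeded both the Sucnr1-/- range and the size of the genotype difference. The share of all genes was not counted for these ranges or for WT replicate 2, so neither count sets the class II genes apart. The mean over the 8 genes, relative to the WT mean, was −0.02, −0.19, −0.34 and −0.21 in Sucnr1-/- mice, against 0.26, −0.29, 0.20 and −0.17 in WT mice. On this scale 2 WT mice fell among the Sucnr1-/- mice and 2 stood above them all.

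**Figure D2:**
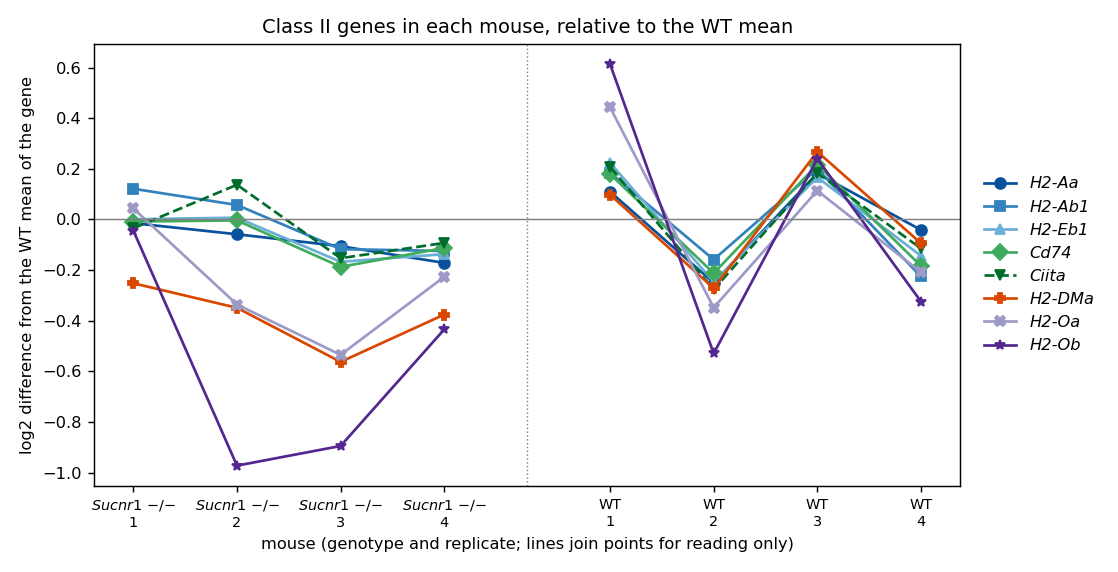
Log2 difference of each class II gene from its WT mean in each mouse, Sucnr1-/- replicates 1 to 4 on the left and WT replicates 1 to 4 on the right. The lines of the genes run in parallel among WT mice, high in replicates 1 and 3, while among Sucnr1-/- mice H2-DMa, H2-Oa and H2-Ob lie below the classical chains in replicates 2, 3 and 4.

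The genes varied together across the 8 arrays, which share tissue, array design and normalization. Pearson's r over the 28 pairs of genes ran from 0.537 (Ciita and H2-Ob) to 0.979 (Cd74 and H2-Eb1), and among H2-Aa, H2-Ab1, H2-Eb1 and Cd74 from 0.797 to 0.979. H2-Oa and H2-Ob correlated at 0.959. With each gene centred within its genotype the 28 values ran from 0.583 to 0.977.

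Within each mouse, H2-DMa was set against the classical chains. Relative to the mean of H2-Aa, H2-Ab1 and H2-Eb1, H2-DMa stood at −0.29, −0.35, −0.43 and −0.23 in Sucnr1-/- mice, against −0.07, −0.05, 0.09 and 0.04 in WT mice. The mean difference was −0.33, with SDs of 0.09 and 0.08 (n = 4 each), and the 2 ranges did not overlap. This ratio was formed after the values had been seen, so it stands as a description with no test. How often other genes separate the genotypes against the same chains was not counted.

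Relative to the mean of H2-Oa and H2-Ob, H2-DMa did not separate the genotypes. It ran from −0.25 to 0.31 in Sucnr1-/- mice and from −0.43 to 0.17 in WT mice, a mean difference of 0.04. This transcript ratio therefore differed by less than the spread between mice. For H2-M it uses H2-DMa alone, it mixes all cells of the tissue, and the signal of H2-Oa was low. The part of cell composition in it was not tested. H2-Ob relative to H2-Oa, also formed after the values had been seen, ran from −0.64 to −0.09 in Sucnr1-/- mice and from −0.18 to 0.17 in WT mice.

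**Figure D3:**
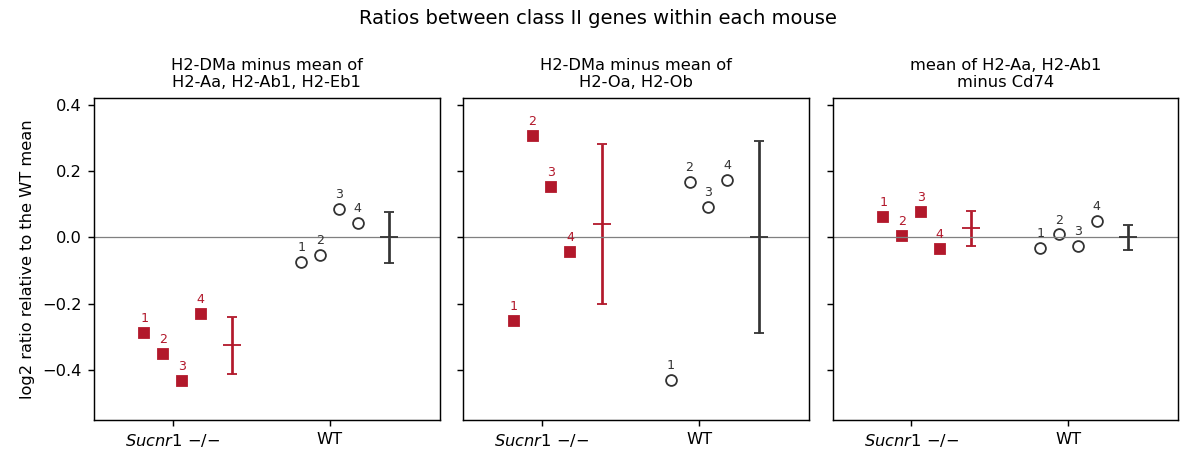
Log2 ratios between class II genes within each mouse, set to the WT mean, with Sucnr1-/- mice (filled squares) left of WT mice (open circles), and mean ± SD (n = 4 each). H2-DMa relative to the classical chains, a ratio formed after the values had been seen, lies between −0.43 and −0.23 in Sucnr1-/- mice. In WT mice it lies between −0.07 and 0.09. The ratios to H2-Oa and H2-Ob and of I-A to Cd74 overlap.

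H2-O is made mainly by B cells, so B cell markers are given beside it. Sucnr1-/- mice had the lower mean for 14 of 15 measured markers (93.3%, against 46.8% of all genes), and 2 of these passed an unadjusted p of 0.05 (13.3%, against 3.36%). Their mean relative to WT ranged from −1.002 to −0.17 in Sucnr1-/- mice and from −0.63 to 1.05 in WT mice, with WT replicate 1 at the top. Cd79a, a chain of the B cell receptor complex, measured 7.70, 5.59, 6.05 and 7.49 in Sucnr1-/- mice, against 9.50, 7.18, 8.59 and 6.88 in WT mice, and Ms4a1, which encodes CD20, differed by −1.01 (SE 0.81). With 1 mouse left out the difference ran from −1.72 to −0.85 for Cd79a and from −1.49 to −0.31 for Ms4a1. The upper ends were without WT replicate 1. Over the 8 arrays the B cell marker mean correlated with H2-Oa at 0.943, with H2-Ob at 0.949 and with H2-DMa at 0.717. Means of other markers also followed these genes, at 0.887, 0.911 and 0.818 for T and NK cell markers and at 0.806, 0.896 and 0.790 for macrophage markers, in the same order of genes. Centred within genotype, H2-DMa correlated at 0.588 with B cell, 0.857 with T and NK cell and 0.483 with macrophage markers. H2-Oa and H2-Ob then correlated with the 3 marker means at 0.814 to 0.932. The part of B cell number in the H2-Oa and H2-Ob values was not tested.

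Markers of the other presenting cells are given in the same way. Of 19 macrophage markers 17 had a lower mean in Sucnr1-/- mice (89.5%, against 46.8% of all genes), with 4 lower (21.1%, against 3.36%) and 1 higher at an unadjusted p under 0.05. Their mean ran from −0.44 to −0.14 in Sucnr1-/- mice and from −0.16 to 0.21 in WT mice. Adgre1, which encodes F4/80, measured 9.87, 9.59, 9.76 and 9.94 in Sucnr1-/- mice, against 10.30, 10.10, 10.70 and 10.07 in WT mice, with no overlap (−0.50, SE 0.15; limma, adjusted p = 0.712). Csf1r, the receptor that macrophages need for survival, differed by −0.24 (SE 0.13). The marker that was higher was Mertk, a receptor for apoptotic cells, at 0.44 (SE 0.12), with no overlap, and it is named after its value was seen.

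Dendritic cell markers were lower on average for 13 of 17 genes (76.5%, against 46.8% of all genes), 2 of them at an unadjusted p under 0.05 (11.8%, against 3.36%). Itgax, which encodes CD11c, differed by −0.48 (SE 0.20), Flt3 by −0.21 (SE 0.14) and Cd209a by −0.37 (SE 0.30), while Zbtb46, a factor of classical dendritic cells, differed by 0.09 (SE 0.08). Adipocyte markers had a median difference of 0.07, lymph node stroma markers of −0.15, T and NK cell markers of −0.28, mesothelial markers of −0.20 and immediate early genes of −0.24. Cxcl13, a chemokine of B cell follicles, stood at −0.93 (SE 0.84) and ran from −1.45 to −0.03 when 1 mouse was left out. The upper end was without Sucnr1-/- replicate 2. Cd3e stood at −0.56 (SE 0.41), between −0.92 and −0.36 when 1 mouse was left out. The immediate early genes correlated over the 8 arrays with H2-Oa at 0.725 and with H2-Ob at 0.708. With the other class II genes they correlated less, from 0.244 for Ciita to 0.465 for H2-Eb1. The part of cell composition and of the immediate early response in the class II values was not tested.

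A further list held proteases and other genes that prepare antigen or trim the invariant chain. It also held genes of other roles, namely Cst3, Cst7, Marchf1, Marchf8, Cd63, Cd82, Cd37, Lamp1 and Lamp2. Of its 21 measured genes 17 had the lower mean in Sucnr1-/- mice (81%, against 46.8% of all genes). An unadjusted p of 0.05 was passed by 8 on that side (38.1%, against 3.36%) and by none on the other. The median difference was −0.20. The mean of the list, relative to WT, ran from −0.30 to −0.17 in Sucnr1-/- mice and from −0.15 to 0.13 in WT mice. No gene of the list passed over all genes in limma. The count of 8 was 4 without Sucnr1-/- replicate 2, without WT replicate 1 and without WT replicate 3, and 11 without WT replicate 2. With 1 mouse left out the median lay between −0.275 and −0.175.

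Ctss encodes cathepsin S, the protease that trims the invariant chain in presenting cells. Ctss measured 10.40, 10.19, 10.39 and 10.51 in Sucnr1-/- mice, against 11.36, 10.41, 11.35 and 10.69 in WT mice. WT replicates 1 and 3 were again the highest, and the difference was −0.58 (SE 0.21; unadjusted p = 0.0246; limma, adjusted p = 0.712). Ifi30, a lysosomal thiol reductase that opens disulphide bonds of antigens, differed by −0.45 (SE 0.17; unadjusted p = 0.0265).

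Among the other proteases, Ctsl differed by −0.20 (SE 0.08) and Ctsd by −0.17 (SE 0.07), both at an unadjusted p under 0.05, and Lgmn, an asparaginyl endopeptidase, by −0.18 (SE 0.13). Ctsz, Ctsk, Ctsh and Cd63 made up the rest of the 8, at −0.25, −0.47, −0.27 and −0.37, and are named after their values were seen. These 4 encode lysosomal proteins of wider use. Cst3, an inhibitor of cathepsins, differed by 0.03 (SE 0.05), and Sppl2a, the protease that removes the last membrane stub of the invariant chain, by 0.01 (SE 0.08). Marchf1, a ubiquitin ligase that sends class II to lysosomes, differed by −0.28 (SE 0.13) and its relative Marchf8 by 0.06 (SE 0.08).

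The factors that act with Ciita on the X and Y boxes were taken next. Sucnr1-/- mice had the lower mean for 15 of 21 measured genes of class II transcription (71.4%, against 46.8% of all genes). At an unadjusted p under 0.05, 1 was lower (4.76%, near the 3.36% of all genes) and 1 higher. The median was −0.08, with −0.03 without Sucnr1-/- replicate 4 and −0.10 without Sucnr1-/- replicate 2. Rfx5, the X box subunit, differed by 0.05 (SE 0.08) and its partner Rfxap by −0.05 (SE 0.08). The Y box subunits Nfya, Nfyb and Nfyc differed by −0.14 (SE 0.17), −0.20 (SE 0.10) and −0.10 (SE 0.10), and Creb1 by 0.003 (SE 0.07).

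Spi1, which encodes the myeloid factor PU.1 used by one of the Ciita promoters, was the gene of this list lower at an unadjusted p under 0.05. Spi1 measured 10.26, 9.77, 9.88 and 9.78 in Sucnr1-/- mice, against 10.66, 10.11, 10.43 and 10.00 in WT mice (−0.38, SE 0.16; limma, adjusted p = 0.719). Kat2b, a histone acetyltransferase, was the one that was higher, at 0.26, and is named after its value was seen. Irf8 differed by −0.28 (SE 0.21), Irf4 by 0.45 (SE 0.40) and Prdm1, a repressor of Ciita in plasma cells, by −0.38 (SE 0.27). With 1 mouse left out Irf8 ran from −0.40 to −0.08 and Prdm1 from −0.51 to −0.09, the upper ends without WT replicate 1. Irf4 ran from 0.12 to 0.75, the lower end without Sucnr1-/- replicate 4.

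**Figure D4:**
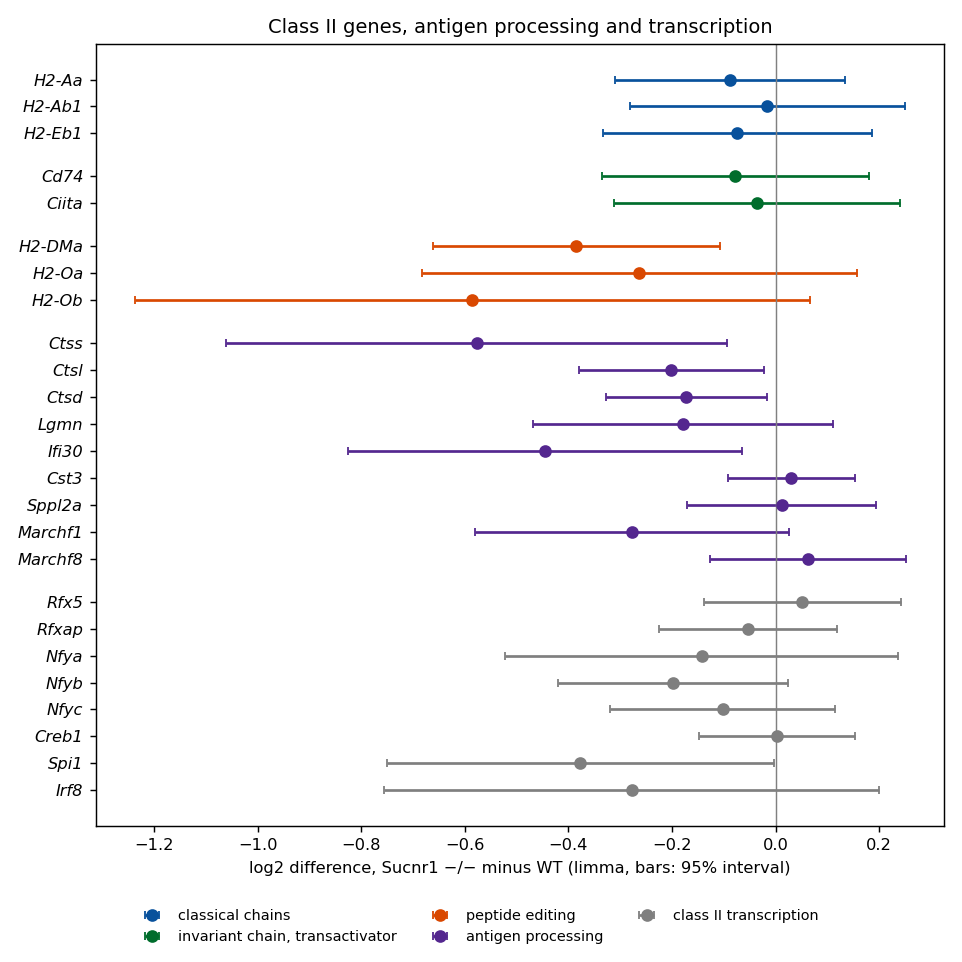
Log2 differences, Sucnr1-/- minus WT (x axis), with 95% intervals from limma for the class II genes and for named genes of antigen processing and class II transcription (rows). The intervals of the classical chains, Cd74 and Ciita span 0, while those of H2-DMa, Ctss, Ctsl, Ctsd, Ifi30 and Spi1 lie below 0 before any adjustment.

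Interferon gamma induces Ciita in many cells. Ifng itself measured 5.07 to 5.39 in Sucnr1-/- mice and 5.03 to 5.74 in WT mice, near the low end of the scale. Of 20 measured genes from interferon gamma to Ciita and its common targets, none passed an unadjusted p of 0.05 in either direction. A lower mean was seen for 16 (80%, against 46.8% of all genes), and the median was −0.19. That median was −0.03 without WT replicate 1 and −0.09 without Sucnr1-/- replicate 4, but −0.24 without WT replicate 4. The receptor chains Ifngr1 and Ifngr2 differed by 0.02 (SE 0.14) and −0.15 (SE 0.10), Irf1 by −0.06 (SE 0.20) and the feedback inhibitor Socs1 by −0.33 (SE 0.31).

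Class I presentation, which displays peptides made in the cytosol, was taken as the neighbouring pathway. Its list also held Cd1d1 and Mr1, class I-like genes for antigens other than such peptides. Of 20 measured genes 16 had a lower mean (80%, against 46.8% of all genes), 2 were lower (10%, against 3.36%) and 1 higher at an unadjusted p under 0.05, and the median was −0.07, with values between −0.12 and −0.05 when 1 mouse was left out. The gene that was higher was Cd1d1, at 0.45 (SE 0.15), and it is named after its value was seen. H2-K1, a classical class I chain, measured 11.72, 11.73, 11.57 and 11.66 in Sucnr1-/- mice, against 11.85, 11.80, 12.05 and 11.81 in WT mice, with no overlap (−0.21, SE 0.08; limma, adjusted p = 0.712). B2m, the light chain of class I, differed by 0.02 (SE 0.06), and Nlrc5, the class I counterpart of Ciita, by −0.26 (SE 0.25).

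On the side of the T cell contact, 13 genes were listed, most of them co-stimulatory. The list also held the inhibitory ligands Cd274 and Pdcd1lg2 and the cytokines Il12b and Il15. All 13 had a lower mean in Sucnr1-/- mice, against 46.8% of all genes, though Tnfsf9 was level at −0.0017. The median was −0.13, and 1 gene was lower at an unadjusted p under 0.05 (7.69%, against 3.36%). Without 1 mouse the median lay between −0.28 (WT replicate 2) and −0.09 (WT replicate 1). The gene that passed was Cd40, through which helper T cells activate presenting cells, with 7.01, 6.57, 6.90 and 6.89 in Sucnr1-/- mice, against 7.77, 7.08, 7.05 and 7.09 in WT mice (−0.41, SE 0.17; limma, adjusted p = 0.719). Its difference ran from −0.47 to −0.23 when 1 mouse was left out, the upper end without WT replicate 1. Cd80 differed by −0.38 (SE 0.39) and Cd86 by −0.13 (SE 0.23). With 1 mouse left out they ran from −0.69 to −0.09 and from −0.28 to 0.07, the upper ends without WT replicate 1. Of 14 genes of CD4+ T cell recognition 13 had a lower mean (92.9%, against 46.8% of all genes), but none reached an unadjusted p of 0.05. Their median of −0.29 was −0.47 without Sucnr1-/- replicate 1, −0.14 without WT replicate 1 and −0.15 without WT replicate 3. Cd4 differed by −0.22 (SE 0.32) and Lag3, a receptor for class II on T cells, by −0.02 (SE 0.09). With 1 mouse left out Cd4 ran from −0.51 to −0.04, the upper end without WT replicate 1.

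Of the 8 measured class II genes 6 lie together on chromosome 17, with Ciita on chromosome 16 and Cd74 on chromosome 18. In gene order H2-Oa and H2-DMa stand at one end, Psmb9, Tap1, Psmb8 and Tap2 of class I processing follow, and H2-Ob, H2-Ab1, H2-Aa and H2-Eb1 come after them. Sucnr1-/- mice had the lower mean for 7 of 11 measured neighbours and the higher mean for 4, with a median of −0.07. Over all genes 46.8% had the lower mean. No neighbour reached an unadjusted p of 0.05. The differences ranged from −0.37 for H2-Eb2 to 0.05 for H2-Ea, both class II genes outside the list. Tap1, a subunit of the peptide transporter, differed by −0.30 (SE 0.18), Tap2 by −0.15 (SE 0.11) and the immunoproteasome subunits Psmb8 and Psmb9 by −0.23 (SE 0.12) and −0.07 (SE 0.11). H2-Ob and H2-Ab1, neighbours among the measured genes, differed by −0.59 and −0.02.

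**Figure D5:**
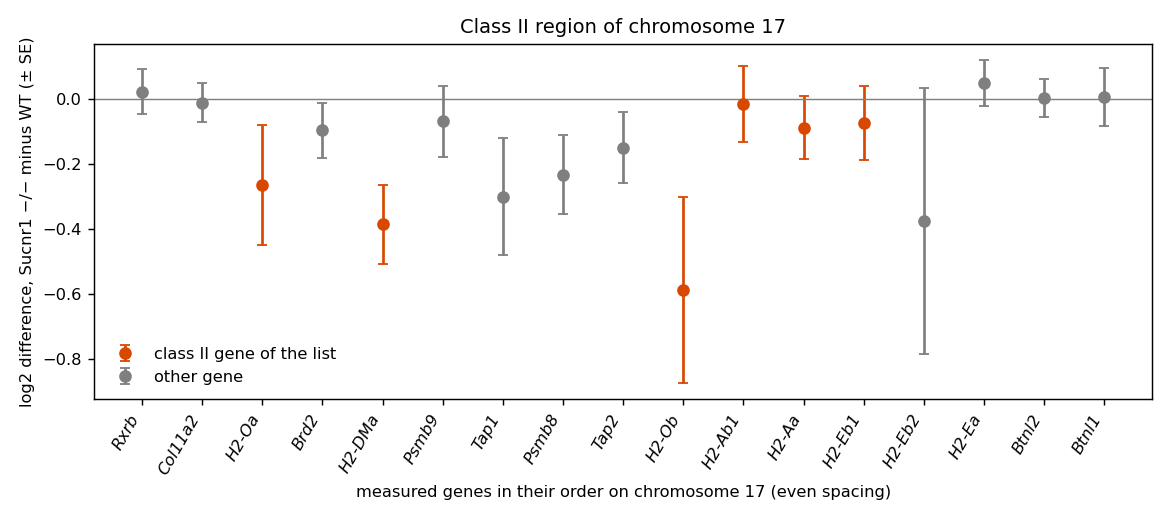
Log2 difference, Sucnr1-/- minus WT (y axis, ± SE), of the measured genes in their order on chromosome 17, evenly spaced (x axis), with class II genes of the list in orange and other genes in grey. H2-DMa at −0.38 and H2-Ob at −0.59 stand below the neighbours between them, while H2-Ab1, H2-Aa and H2-Eb1 lie between −0.09 and −0.02.

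The genes whose pattern over the 8 arrays was most like the mean of the class II genes were sought among 9209 genes of at least median signal. Septin6 (r = 0.973), Lpxn (0.968), Ccnb2 (0.963), Stap1 (0.957), Cd2 (0.954), Pstpip1 (0.953), Il10ra (0.949) and Slamf7 (0.948) led, and within genotypes the same 8 genes had r of 0.934 to 0.975. The closest, Septin6, measured 8.00, 7.76, 7.68 and 7.66 in Sucnr1-/- mice, against 8.33, 7.63, 8.16 and 7.86 in WT mice. Being chosen to follow a mean that was lower in Sucnr1-/- mice, all 8 were lower there too, between −0.59 for Stap1 and −0.22 for Septin6, so this is a description only. None passed in limma over all genes (adjusted p 0.712 to 0.767).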

How the data were processed

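RNA of epididymal adipose tissue from 8 mice was measured on 1 Affymetrix Mouse Gene 1.1 ST array per mouse. The deposited values are log2 expression per probe set, which the authors made with RMA. RMA corrects background, gives all arrays a common distribution and combines the probes of a set, so differences in total signal are removed and low values are compressed. Its version, a genome build and scan dates are not given in the sources used here, so no batch could be examined. The number of arrays limits the precision.

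Of 35556 probe sets, 21218 had 1 gene symbol, 1881 had several and 12457 had none in the platform annotation. By Entrez ID 21185 matched RefSeq genes of GRCm38.p6, used for names, gene order and promoter sequences. The brightest probe set was used for the 1386 genes with more than 1, and each measured class II gene had 1. Coordinates are those of the promoter table. No dim gene was left out.

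Genotypes were compared with limma 3.58.1 in R 4.3.3, Sucnr1-/- minus WT, with Benjamini-Hochberg adjustment over 18820 genes at 0.05, and single genes by an exact two-sided permutation test (scipy 1.17.1, Python 3.11.15). Ranges, SDs and correlations are over mice. The procedure was tested on simulated data in which changes had been added to many genes. Such a test does not show what can pass here, where Sucnr1 itself did not pass after adjustment. The H2-M balance was planned on H2-DMa and H2-DMb1, and used H2-DMa alone. Named genes were the class II genes, other genes fixed by role, and the 8 most alike in pattern. The class II genes and all lists were chosen with earlier results of these data known. The counts over all genes and over the class II and antigen processing genes, the medians of the pathway lists and the named genes were recomputed without each mouse in turn, with the methods' test, with a prior that depends on intensity, with array weights, without the 40% dimmest genes, after centring arrays on their median, after quantile normalization, with all probe sets of a gene averaged, and with a block for the replicate number. Ctsb, Rfxank and H2-D1 had no probe set with 1 symbol, and some listed genes are not reported here. Figures were drawn with matplotlib 3.10.9.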

Additional observations from a re-analysis of the deposited data

Results flagged for a closer look

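In 6 of 130 groups of 4 mice examined, 1 mouse stood far from the other 3 of its genotype for a gene named above, by Dixon's criterion, which flags about 5% of groups by chance. WT replicate 1 was the mouse apart for Nlrc5, at 9.58 log2 units against 8.90 to 8.95 in the other WT mice. It was also apart for Prdm1, at 7.31 against 6.14 to 6.24, for Ifngr2, at 11.11 against 10.79 to 10.84, and for Cd40, at 7.77 against 7.05 to 7.09. Sucnr1-/- replicate 1 stood apart for Cd4, at 7.22 against 5.95 to 6.16 in the other Sucnr1-/- mice, and for Lpxn, at 8.72 against 8.43 to 8.47. None of these 6 groups was of a class II gene. WT replicate 1 was also among the 2 highest mice for all 8 class II genes, and whether 1 property of that mouse lies behind both was not tested.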

How the results depend on the processing

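Under 16 alternatives no gene passed an adjusted p of 0.05, and of 65 named genes 53 kept their sign. H2-Aa, H2-DMa, H2-Oa, H2-Ob and Cd74 kept theirs in every alternative run, and H2-DMa was lower at an unadjusted p under 0.05 in all. With median centring H2-Ab1 became 0.025 and Ciita 0.0050, and with quantile normalization Ciita became 0.0063. Leaving out 1 mouse gave −0.091 to 0.051 for H2-Ab1, −0.13 to 0.033 for Ciita and −0.16 to 0.0005 for H2-Eb1. The number of class II genes with a lower mean was then 5 to 8, and their median −0.16 to −0.02. Lower at an unadjusted p were 1 to 2 without 1 mouse, 2 with array weights and 2 with the replicate number as a block, the added gene being H2-Ob. Antigen processing counted 4 to 11 without 1 mouse. Across all genes the block gave 1096 lower and 809 higher. Same-numbered mice correlated at 0.454, 0.141, 0.106 and 0.015, so not every pair exceeded 0.1 and the numbers were not taken as pairs, though a shared batch or day was not tested, and not every mouse correlated best with its own number. Of all genes 330 were lower and 1352 higher with median centring, 465 and 838 with quantile normalization, 535 and 369 without the 40% dimmest genes, and 368 to 885 and 440 to 870 without 1 mouse. Array weights turned Ifngr1 to −0.0010, Irf1 to 0.0014, B2m to −0.0026 and Lag3 to 0.0141, quantile normalization B2m to −0.0066, median centring Lag3 to 0.0228 and the mean of its probe sets Irf1 to 0.0954. Leaving out 1 mouse gave −0.064 to 0.10 for Ifngr1, −0.18 to 0.091 for Irf1, −0.0084 to 0.050 for B2m, −0.077 to 0.038 for Lag3, −0.036 to 0.067 for Sppl2a, −0.090 to 0.0006 for Rfxap, −0.029 to 0.042 for Creb1, −0.28 to 0.071 for Cd86 and −0.66 to 0.074 for H2-Eb2. The cause of these changes was not tested. The filter on dim genes left out H2-Oa, Ifng, Lag3, H2-Eb2, H2-Ea and Flt3, so it gave no value for them.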
